A study of Mus musculus with 9 samples.

Results

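Gas5, Snhg1, Snhg3, Snhg6, Snhg8, Snhg12, Neat1 and Malat1 are long noncoding RNA genes, and were taken by symbol as 8 of the 55291 gene rows in the count tables of a mouse leukaemia study. The cells sequenced were acute myeloid leukaemia cells labelled Trp53(R172H/delta), after an amino acid change of p53, the product of Trp53. They came from the lungs (3 libraries) and the bone marrow (3 libraries) of wild-type recipients, and from in vitro cultures (3 libraries). All 9 libraries carry this genotype, and the labels give no age, strain or treatment. Nor do the labels say whether the libraries of a group came from separate mice or cultures, so p-values measure the spread between these libraries, which may be technical. The series title names tissue-specific microenvironments, and lung against bone marrow compares the tissues, while each tissue against culture compares recovered with cultured cells.

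Gas5 and the Snhg genes are small nucleolar RNA (snoRNA) host genes. Their introns carry snoRNAs, which guide chemical modification of ribosomal and other RNAs, while the spliced host RNA is mostly turned over. Gas5, named growth arrest specific, and several other hosts start with a terminal oligopyrimidine (TOP) tract, the element shared by ribosomal protein and translation factor mRNAs whose translation follows growth signals. Because the host RNAs hold only short reading frames, translation exposes them to nonsense-mediated decay, and they are known to accumulate when translation stops. Neat1 and Malat1 lie next to each other in the genome and stay in the nucleus. Neat1 is the architectural RNA of paraspeckles and is known as a p53 target gene, and Malat1 is concentrated in nuclear speckles, where splicing factors are stored.

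The TOP tract sits at the first transcribed base, so the sequence around the RefSeq start is shown for the 6 of the 8 genes matched in the RefSeq promoter table (GRCm38.p6). Each stretch of 100 bases runs 5′ to 3′ and has 50 bases before the annotated start followed by 50 bases from it. Capitals mark the longest run of C and T letters that touches the 11 bases centred on the start.
Gas5, downstream start, chr1:161035116-161035215, plus strand: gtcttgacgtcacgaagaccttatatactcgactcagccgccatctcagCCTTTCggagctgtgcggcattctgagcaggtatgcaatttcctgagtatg
Snhg1, chr19:8723437-8723536, plus strand: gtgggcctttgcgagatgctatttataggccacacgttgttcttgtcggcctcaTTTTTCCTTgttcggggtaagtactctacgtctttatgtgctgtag
Snhg8, chr3:123508287-123508386, minus strand: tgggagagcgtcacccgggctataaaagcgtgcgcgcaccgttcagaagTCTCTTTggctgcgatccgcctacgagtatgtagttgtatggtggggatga
Snhg12, chr4:132308628-132308727, plus strand: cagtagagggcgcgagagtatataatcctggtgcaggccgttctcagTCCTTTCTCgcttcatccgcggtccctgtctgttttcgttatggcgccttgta
Snhg3, chr4:132353637-132353736, minus strand: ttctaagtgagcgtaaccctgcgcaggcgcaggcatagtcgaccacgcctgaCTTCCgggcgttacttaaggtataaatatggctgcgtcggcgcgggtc
Malat1, chr19:5802623-5802722, minus strand: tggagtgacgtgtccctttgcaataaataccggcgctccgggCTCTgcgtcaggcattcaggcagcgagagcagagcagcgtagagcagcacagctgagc

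The run was 9 letters in Snhg1 and Snhg12, 7 in Snhg8, 6 in Gas5, 5 in Snhg3 and 4 in Malat1. Its first letter lay at base -3 from the annotated start in Snhg12 and at base -1 in Snhg8 and Gas5, and these runs crossed the start. In Snhg1 and Snhg3 the run began after the start, at base 5 and base 3. That of Malat1 began at base -8 and ended before the start. RefSeq also lists an upstream start of Gas5, where the run was 3 letters. A run of 5 or more letters occurred at 32.9% of 32851 promoters in the same table, so such a run does not single out these genes. The motif CACGTG, which reads the same on both strands, was in none of these 300-base promoters and in 7.15% of all of them.

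Counts summed to between 27485111 and 38761363 reads per library. Levels are in CPM, read counts scaled to a fixed library total, with library sizes scaled by TMM, and 1 read was worth between 0.0249 and 0.0371 CPM. All 8 genes passed the low-count filter that left 15066 genes. They were read 19 times at least (Snhg3 in culture replicate 3) and 17128 times at most (Gas5 in bone marrow replicate 3). The progenitor receptor gene Kit averaged 631 CPM in lung, 633 CPM in bone marrow and 1170 CPM in culture. The leukocyte gene Ptprc was at 1.31 to 17.2 CPM over the 9 libraries, and the myeloid gene Itgam at 7.53 CPM or less. Both peaked in bone marrow replicate 3. Its fellow bone marrow libraries had Ptprc at 2.42 CPM or less and Itgam at 1.7 CPM or less.

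Culture replicates 1 and 3 deviated in opposite directions for these genes. In culture replicate 1 their median was 0.35 higher on the log2 scale than the mean of culture replicates 2 and 3. All 8 were lowest in culture replicate 3 among the 3 culture libraries, whereas 36.4% of all tested genes were. Their median there was 0.44 lower on the log2 scale than the mean of culture replicates 1 and 2, against a median difference of 0 for all tested genes. The same library was lowest for 12 of 13 other noncoding snoRNA hosts and for 17 of 20 nuclear speckle protein genes, but for 2 of 20 TOP translation genes. Each call of the 8 RNAs that ended without this library is given below with its value, and the part of the library in other results was not tested.

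**Figure D1:**
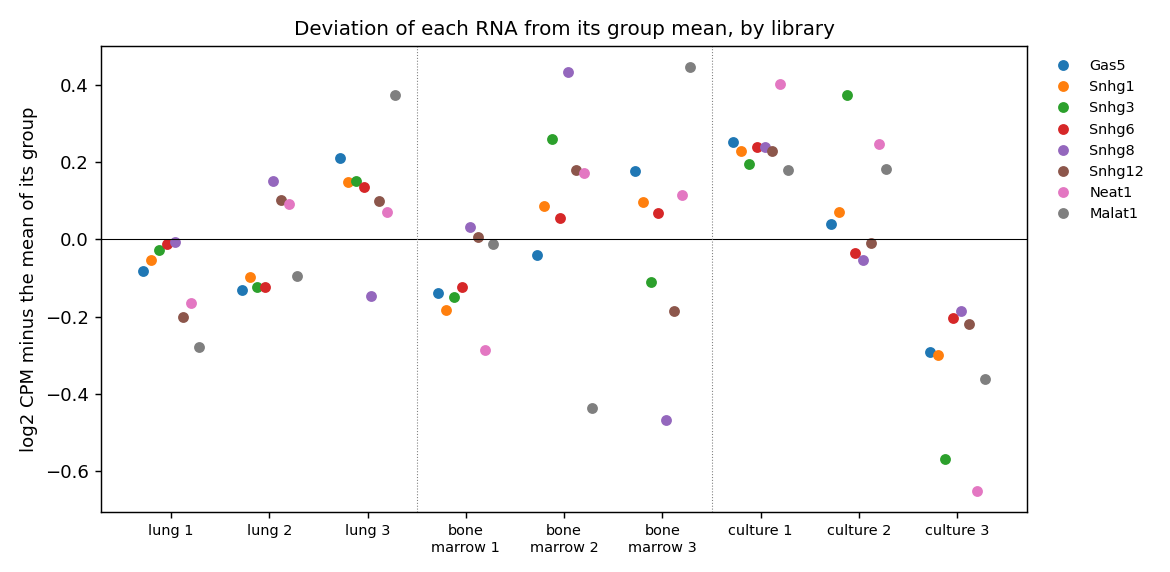
Log2 CPM of each of the 8 RNAs minus the mean of its own group (y axis) in each of the 9 libraries (x axis). All 8 points lie below 0 in culture replicate 3 and above 0 in culture replicate 1, while the RNAs part ways within bone marrow, where Malat1 and Snhg8 deviate in opposite directions in replicates 2 and 3.

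Snhg1 had the smallest adjusted p of the 8 in both comparisons against culture, at more than 2-fold the culture level in cells from both tissues. Snhg1 hosts a row of box C/D snoRNAs and lies on chromosome 19 from 8723475 to 8726443 (GRCm38, plus strand). It was at 45.8, 44.4 and 52.6 CPM in the lung libraries, at 40.8, 49.2 and 49.6 CPM in the bone marrow libraries and at 24.0, 21.4 and 16.6 CPM in the culture libraries. Every tissue library was above every culture library, and the tissues overlapped each other. Snhg1 rose by 1.20 ± 0.13 on the log2 scale in lung against culture (SE; edgeR adjusted p = 6.5e-06) and by 1.17 ± 0.13 in bone marrow against culture (adjusted p = 6e-06). In lung against bone marrow its log2 change was 0.03 ± 0.13 (edgeR adjusted p = 0.88), with 2 SE reaching from -0.23 to 0.29. In these bulk libraries fewer cells of a type and less RNA per cell cannot be told apart.

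**Figure D2:**
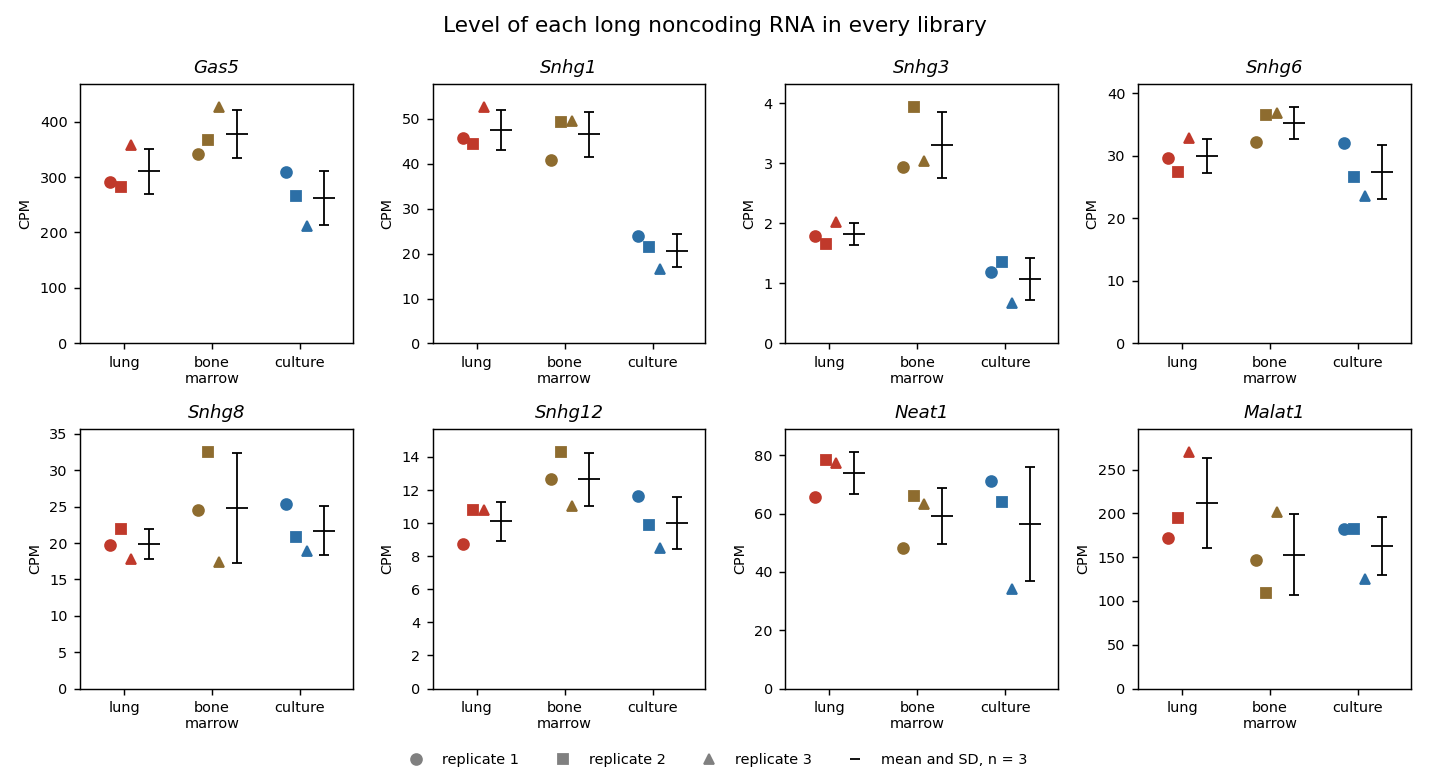
Level in CPM (y axis, from 0) of each of the 8 RNAs in the 3 libraries of lung, bone marrow and culture, with the mean and SD of each group (n = 3). Snhg1 is at 40.8 CPM or more in every tissue library and at 24.0 CPM or less in every culture library, while the groups of Neat1 and Malat1 overlap.

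Gas5, the most abundant of the 8 per kilobase of exon, was higher in bone marrow than in culture. It lies on chromosome 1 from 161034422 to 161038539 (GRCm38, plus strand). It was at 292, 282 and 357 CPM in lung, at 342, 366 and 426 CPM in bone marrow and at 309, 266 and 212 CPM in culture. Bone marrow lay wholly above culture, and lung overlapped both. Gas5 rose by 0.53 ± 0.14 on the log2 scale in bone marrow against culture (edgeR adjusted p = 0.0058). Its log2 change was 0.24 ± 0.14 in lung against culture (adjusted p = 0.16) and -0.29 ± 0.14 in lung against bone marrow (adjusted p = 0.15, edgeR), so the tissues were not shown to differ. Without culture replicate 1 (log2 change 0.34, edgeR adjusted p = 0.049) or without the low-count filter (0.26, 0.021), Gas5 passed in lung against culture. Without that filter it also passed as lower in lung against bone marrow (-0.28, edgeR adjusted p = 0.022).

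Snhg6, on chromosome 1 from 9941959 to 9944118 (minus strand), hosts the snoRNA gene Snord87. It was at 29.6, 27.4 and 32.8 CPM in lung, at 32.3, 36.5 and 36.8 CPM in bone marrow and at 32.1, 26.5 and 23.6 CPM in culture. The lowest bone marrow library was just above the highest culture library. Snhg6 rose by 0.36 ± 0.12 on the log2 scale in bone marrow against culture (edgeR adjusted p = 0.02). That call was lost without culture replicate 3 (0.26, adjusted p = 0.11), without culture replicate 2 (adjusted p = 0.072) and without bone marrow replicate 2 (adjusted p = 0.055, all edgeR). Its log2 change was 0.13 ± 0.12 in lung against culture (edgeR adjusted p = 0.39) and -0.23 ± 0.12 in lung against bone marrow (0.18).

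Snhg3 was the rarest of the 8 in CPM and was highest in bone marrow. It hosts the H/ACA snoRNAs Snora73a and Snora73b and lies on chromosome 4 from 132348014 to 132353686 (minus strand). It was at 1.78, 1.66 and 2.02 CPM in lung, at 2.94, 3.93 and 3.03 CPM in bone marrow and at 1.19, 1.35 and 0.675 CPM in culture. These are 51 to 68 reads in lung, 99 to 127 in bone marrow and 19 to 44 in culture. The 3 groups did not overlap. Snhg3 fell by 0.86 on the log2 scale in lung against bone marrow (SE 0.27, edgeR adjusted p = 0.032). It rose by 1.61 ± 0.28 in bone marrow against culture (adjusted p = 0.00022) and by 0.76 ± 0.28 in lung against culture (adjusted p = 0.035, edgeR). The fall in lung was lost without lung replicate 1 (adjusted p = 0.08), lung replicate 2 (0.094) or bone marrow replicate 2 (0.12, edgeR). The rise in lung against culture was lost without any 1 of the lung libraries and without culture replicate 1 (edgeR adjusted p = 0.05 to 0.097), without culture replicate 3 (0.51, 0.14), and with limma-voom (0.052).

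Counts of Snhg3 share their locus with other genes. Of its 986 exonic bases in GENCODE M21, 705 are covered by exons of the antisense gene Gm17300 and 135 by exons of Rcc1, a regulator of the Ran GTPase on the same strand. The counts are unstranded, so reads of Snhg3 and Gm17300 cannot be told apart over the shared bases. Gm17300 also fell in lung against bone marrow (log2 change -0.87 ± 0.21, edgeR adjusted p = 0.0098) and rose in bone marrow against culture (1.5 ± 0.22) and in lung against culture (0.63 ± 0.22). Snhg3 reads were 27.5 ± 2.18% of Gm17300 reads in lung, 28 ± 5.94% in bone marrow and 24.9 ± 3.06% in culture (SD, n = 3 each), with all groups overlapping. Rcc1 was at 259 ± 33.1 CPM in lung, 260 ± 8.13 CPM in bone marrow and 170 ± 3.14 CPM in culture (SD, n = 3 each). It rose by 0.61 ± 0.09 in bone marrow against culture (edgeR adjusted p = 4.8e-05) and by 0.61 ± 0.09 in lung against culture (6.6e-05), and its log2 change was -0.01 ± 0.09 in lung against bone marrow (0.96). Snhg3 reads were 0.708 ± 0.057% of Rcc1 reads in lung, 1.28 ± 0.253% in bone marrow and 0.63 ± 0.204% in culture (SD, n = 3 each), and lung and culture overlapped. The part of either gene in the counts of Snhg3 was not tested.

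Snhg8 and Snhg12 did not pass in any comparison on all 9 libraries. Snhg8, on chromosome 3 from 123507552 to 123508404 (minus strand), hosts the H/ACA snoRNA Snora24. It was at 19.7, 22.0 and 17.8 CPM in lung, at 24.6, 32.5 and 17.4 CPM in bone marrow and at 25.4, 20.8 and 18.9 CPM in culture. Its bone marrow libraries spanned both other groups. Its log2 change was -0.32 ± 0.20 in lung against bone marrow (edgeR adjusted p = 0.25), 0.19 ± 0.20 in bone marrow against culture (0.42) and -0.13 ± 0.20 in lung against culture (0.6). Without bone marrow replicate 3, Snhg8 passed in lung against bone marrow (log2 change -0.54, edgeR adjusted p = 0.02) and in bone marrow against culture (0.40, adjusted p = 0.039).

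Snhg12, on chromosome 4 from 132308623 to 132311024 (plus strand), hosts the snoRNA genes Snora16a, Snora44, Snora61 and Snord99. It was at 8.75, 10.8 and 10.8 CPM in lung, at 12.6, 14.3 and 11.1 CPM in bone marrow and at 11.6, 9.88 and 8.52 CPM in culture. Lung lay just below bone marrow, and culture overlapped both. Its log2 change was -0.32 ± 0.16 in lung against bone marrow (edgeR adjusted p = 0.14), 0.34 ± 0.16 in bone marrow against culture (0.076) and 0.01 ± 0.16 in lung against culture (0.95). In bone marrow against culture it passed with upper-quartile scaling (adjusted p = 0.035), with library size scaling (0.043) and without bone marrow replicate 3 (0.036).

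Neat1 and Malat1 passed in none of the 3 comparisons on all 9 libraries. Neat1 lies on chromosome 19 from 5824708 to 5845478 (minus strand). It was at 65.7, 78.6 and 77.4 CPM in lung, at 48.1, 66.0 and 63.4 CPM in bone marrow and at 71.2, 63.9 and 34.3 CPM in culture. The groups overlapped, and culture replicate 3 was far below every other library. The log2 change of Neat1 was 0.32 ± 0.24 in lung against bone marrow (edgeR adjusted p = 0.36), 0.07 ± 0.24 in bone marrow against culture (0.83) and 0.39 ± 0.24 in lung against culture (0.2). Without culture replicate 3 its change in bone marrow against culture was -0.20, which is the other direction, and did not pass (edgeR adjusted p = 0.25).

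Malat1 lies on chromosome 19 from 5795690 to 5802672 (minus strand). It was at 171, 195 and 270 CPM in lung, at 147, 109 and 202 CPM in bone marrow and at 182, 182 and 125 CPM in culture. All 3 groups overlapped, and the coefficient of variation reached 24.2% in lung, 30.4% in bone marrow and 20.2% in culture. Its log2 change was 0.47 ± 0.26 in lung against bone marrow (edgeR adjusted p = 0.22), with 2 SE reaching from -0.05 to 1. In bone marrow against culture it was -0.09 ± 0.26 (0.77) and in lung against culture 0.38 ± 0.26 (0.26). Without bone marrow replicate 3, Malat1 passed in lung against bone marrow (0.71, edgeR adjusted p = 0.049).

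The counts of calls stand beside those of all 15066 tested genes. In lung against bone marrow 0 of the 8 passed as higher and 1 as lower, Snhg3, where 14.2% of all genes passed as higher and 11.1% as lower (25.3% in all). In bone marrow against culture 4 of 8 passed as higher and 0 as lower, where 30.7% of all genes passed as higher and 29.8% as lower (60.5% in all). In lung against culture 2 of 8 passed as higher, Snhg1 and Snhg3, and 0 as lower, where 27.9% of all genes passed as higher and 27.0% as lower (54.9% in all). Groups did not overlap in 2 of 8 for lung against bone marrow, both lower in lung (36.6% of all genes in either direction and 18.5% higher). They did not overlap in 4 of 8 for bone marrow against culture, all higher in bone marrow (67.2% and 34.3%), and in 2 of 8 for lung against culture, both higher in lung (66.8% and 34.0%). The median log2 change of the 8 was -0.26 in lung against bone marrow, 0.35 in bone marrow against culture and 0.31 in lung against culture, against -0.01, 0.05 and 0.02 over all tested genes. Any pair of these comparisons shares a group of libraries.

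**Figure D3:**
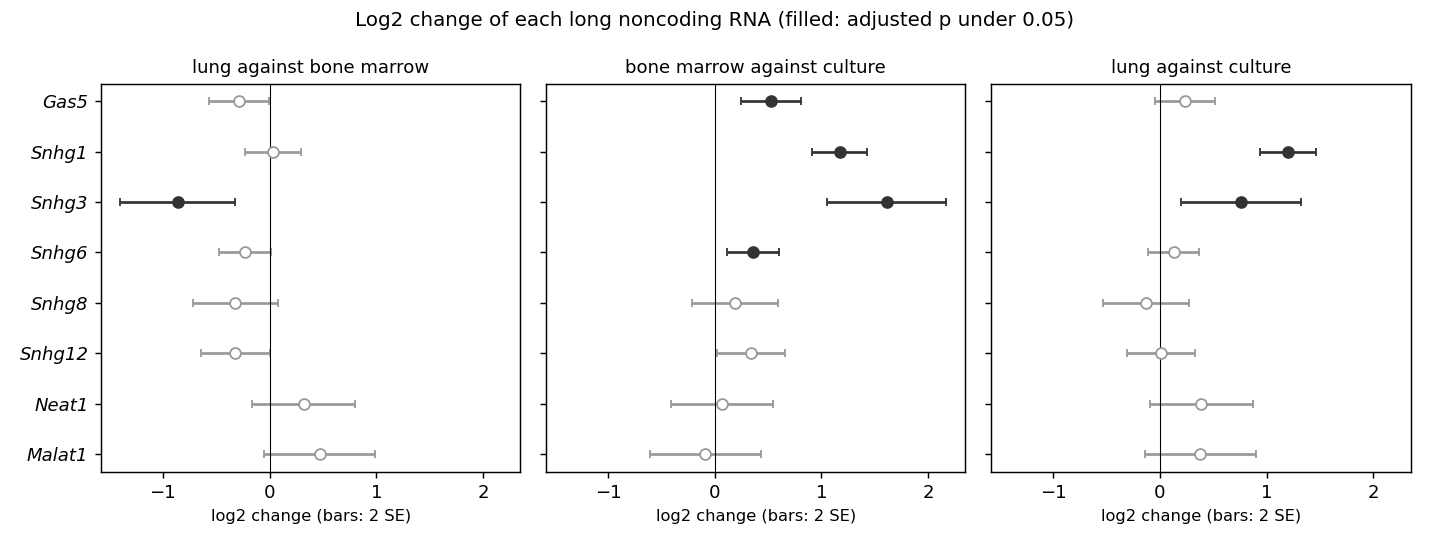
Log2 change of each RNA (x axis) in the 3 comparisons, with bars of 2 SE and filled points where the edgeR adjusted p was under 0.05. Snhg1 sits at 1.20 in lung against culture and 1.17 in bone marrow against culture but at 0.03 between the tissues, and the bars of Neat1 and Malat1 cross 0 in every panel.

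Ratios within a library do not depend on how libraries are scaled. Snhg1 reads were 15.7, 15.7 and 14.7% of Gas5 reads in lung, 11.9, 13.4 and 11.6% in bone marrow and 7.75, 8.05 and 7.83% in culture. The 3 groups did not overlap, in the order lung, bone marrow, culture. Within culture this ratio had a coefficient of variation of 1.97%, although Snhg1 and Gas5 themselves varied by 18.2% and 18.6% there. The ratio was measured from 467 to 697 reads of Snhg1 in culture. Counting noise at that depth is by itself above 1.97%, so this value does not measure how closely Snhg1 and Gas5 follow each other. Over 8747 genes of 10 CPM or more, the ratio to Gas5 did not overlap for 36.5% in lung against bone marrow (35.6% higher), for 62.0% in bone marrow against culture (4.56% higher) and for 46.6% in lung against culture (9.65% higher). With 3 libraries against 3 an exact permutation test cannot go below a p of 0.10, and none was run on ratios.

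Snhg3 reads were 0.611, 0.591 and 0.567% of Gas5 reads in lung, 0.861, 1.07 and 0.712% in bone marrow and 0.384, 0.508 and 0.319% in culture. Bone marrow was highest and culture lowest, without overlap. The culture values rest on only 19 to 44 reads of Snhg3. At 3.93 CPM or less, Snhg3 is also outside the genes of 10 CPM or more whose shares are given above. For Snhg6 the groups did not separate. Its reads were 9.70 ± 0.489% of Gas5 reads in lung, 9.35 ± 0.661% in bone marrow and 10.5 ± 0.595% in culture (SD, n = 3 each), and all groups overlapped. Snhg12 was at 3.28 ± 0.476% in lung, 3.40 ± 0.699% in bone marrow and 3.83 ± 0.168% in culture, also overlapping. Snhg8 was at 6.51 ± 1.41% in lung and 6.71 ± 2.43% in bone marrow, and at 8.32 ± 0.576% in culture, with lung wholly below culture. Neat1 reads were 38.4, 40.4 and 28.7% of Malat1 reads in lung, 32.8, 60.3 and 31.5% in bone marrow and 39.2, 35.1 and 27.5% in culture, overlapping in every comparison.

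**Figure D4:**
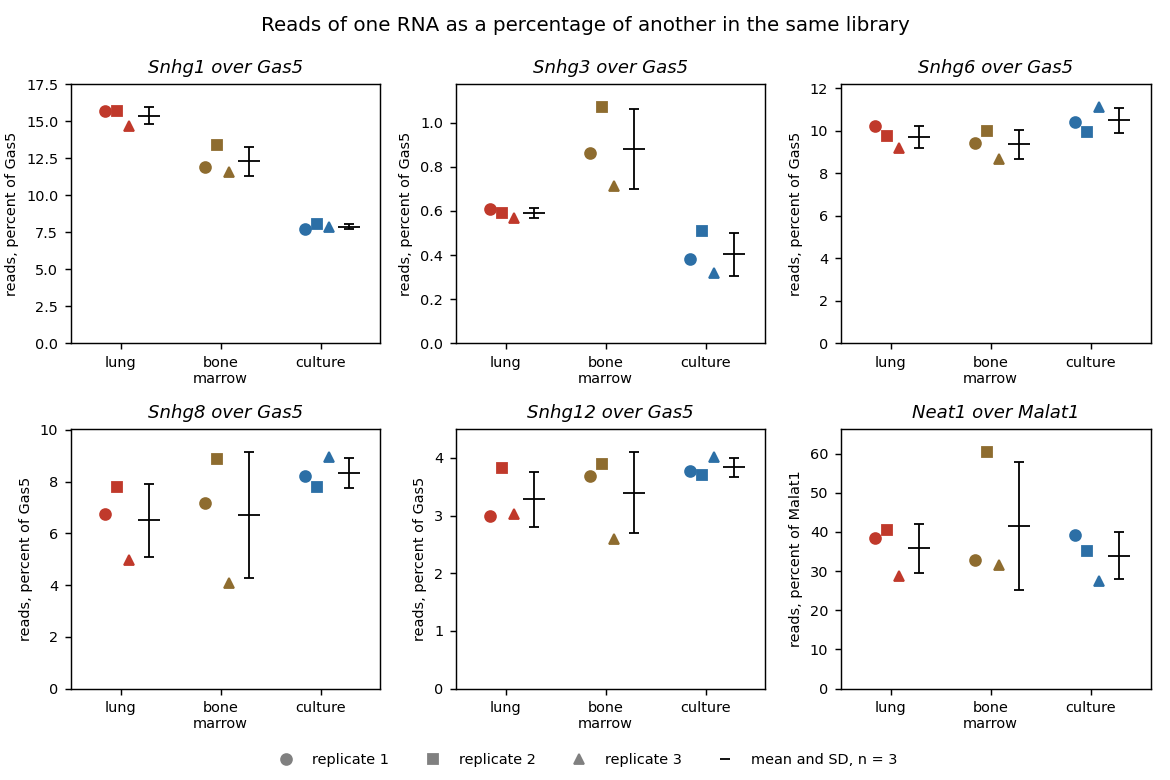
Reads of a snoRNA host as a percentage of Gas5 reads, and of Neat1 as a percentage of Malat1 reads, in the same library (y axis, from 0), for lung, bone marrow and culture with mean and SD (n = 3). Snhg1 over Gas5 forms 3 separate levels of 15.4, 12.3 and 7.88% on average, while Snhg6 over Gas5 stays between 8.65 and 11.1%.

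Levels between genes were compared per kilobase of annotated exon. Gas5 led in every group, at 82.5 CPM per kilobase in lung, 101 in bone marrow and 69.8 in culture. Snhg6, Snhg8 and Malat1 followed in all groups, at 21.9 to 30.7 CPM per kilobase, in an order that their coefficients of variation of 7.23 to 30.5% do not separate. Snhg1 came after these throughout, at 16 CPM per kilobase in lung and 15.7 in bone marrow, against 6.96 in culture. Snhg12, Neat1 and Snhg3 were lowest, at 1.09 to 5.27 CPM per kilobase. The exon lengths set this order: the annotated exons of Snhg1 cover its whole span of 2969 bases, introns with snoRNAs included, while those of Snhg6 cover 1146 of 2160 bases. Neat1 is divided by 20771 exonic bases of its long form, which understates it if most reads came from the short isoform. Snhg3 is divided by all 986 exonic bases, 705 of them shared with exons of Gm17300 and 135 with exons of Rcc1. Its level is understated if reads over shared bases were left uncounted, and how such reads were counted is not given.

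Across the 9 libraries, log2 CPM of Gas5 and Snhg6 had a Pearson r of 0.97, and that of Gas5 with Snhg1 was 0.79 and with Snhg3 0.88. Gas5 and Snhg8 had r = 0.13, Neat1 and Malat1 r = 0.61, and Snhg8 and Malat1 r = -0.63. These values describe 9 points that share library and group. Among 8542 other named genes of 10 CPM or more, the pattern most like Gas5 was that of Zfp932 (r = 0.976), followed by Med10 (0.957), and Zfp932 was also first for Snhg6 (0.968). Snhg1 was most like Gnptg (0.994) and Lrrc45 (0.990), Snhg3 like Fra10ac1 (0.990) and Nup85 (0.985), and Snhg12 like the ribosomal protein genes Rpl31 (0.961) and Rpl38 (0.960). Rhbdd3 (0.944) came second for Snhg6. The closest genes were Ccs (0.922) and Mri1 (0.912) for Snhg8, E4f1 (0.940) and Rrnad1 (0.909) for Neat1, and Trmt1l (0.926) and Tinf2 (0.924) for Malat1.

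The snoRNAs themselves were hardly measured. GENCODE M21 places 27 snoRNA genes inside the 6 hosts, and 24 distinct symbols of them are rows of the count tables. Of these, 22 had 0 reads in all 9 libraries. Snord87 in Snhg6 had 2 to 26 reads per library and Snora73a in Snhg3 had 0 to 4. The SMART-seq v4 kit primes on poly(A) tails, which snoRNAs lack, and 25 of the 27 snoRNA genes overlap annotated exons of their host, so these zeros give no level of the mature snoRNAs. How fully such priming captures Neat1 and Malat1 was not tested, so their CPM may not give their full level. Snord87 passed as higher in lung against culture (log2 change 1.61 ± 0.55, edgeR adjusted p = 0.023), a call lost without lung replicate 1 or 2 or culture replicate 2 or 3.

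Other noncoding snoRNA hosts were mostly higher in both tissues than in culture. For this and the lists below, the shares of all tested genes that rose and fell were 30.7% and 29.8% in bone marrow against culture. They were 27.9% and 27.0% in lung against culture, and 14.2% and 11.1% in lung against bone marrow. Of 16 hosts listed, 13 were tested. In bone marrow against culture 10 rose and 0 fell (median log2 change 1.36), and in lung against culture 9 rose and 1 fell (0.76). In lung against bone marrow 0 rose and 7 fell (-0.52), and 4 fell without bone marrow replicate 2. Of all 1307 long noncoding genes tested, 2.37% rose and 20.4% fell in lung against bone marrow (median -0.43). Of the same genes 30.9% rose and 16.4% fell in bone marrow against culture, and 16.8% rose and 25.9% fell in lung against culture. Dancr, a host named for blocking differentiation, was at 12.6, 14.7 and 14.6 CPM in lung, 23.0, 32.0 and 23.5 CPM in bone marrow and 4.67, 3.08 and 2.10 CPM in culture. It rose by 2.09 ± 0.24 on the log2 scale in lung against culture and by 3 ± 0.24 in bone marrow against culture (edgeR adjusted p = 1.3e-05 and 5.3e-07). Snhg4 averaged 66.2 ± 5.62 CPM in lung and 150 ± 52.7 CPM in bone marrow (SD, n = 3 each), and fell by 1.18 on the log2 scale (edgeR adjusted p = 0.0034). Zfas1 was the host that fell in lung against culture, by 0.51 on the log2 scale (edgeR adjusted p = 0.0034), and was at 24.7 CPM in lung against 35.2 CPM in culture.

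Translation genes with TOP tracts and genes of snoRNA-protein particles (snoRNPs) also had more rises than falls against culture. Of 20 TOP translation genes, 15 rose and 2 fell in bone marrow against culture, 9 rose and 2 fell in lung against culture, and 0 rose and 11 fell in lung against bone marrow (median log2 changes 0.48, 0.19 and -0.29). Fewer passed without lung replicate 2 (6 fell in lung against bone marrow) and without lung replicate 3 (5 rose in lung against culture), 4 fell in bone marrow against culture without bone marrow replicate 1, and 4 fell in lung against culture without bone marrow replicate 3. The elongation factor subunit Eef1d rose by 1.22 ± 0.09 in bone marrow against culture and by 0.99 ± 0.09 in lung against culture, while Pabpc1, the poly(A)-binding protein, fell by 0.47 in lung against culture. Eif2s3x, an initiation factor subunit, fell by 0.64 in bone marrow against culture, and Eef1b2 fell by 0.49 in lung against bone marrow. Of 17 snoRNP genes, 13 rose and 1 fell in bone marrow against culture, 13 rose and 0 fell in lung against culture, and 0 rose and 2 fell in lung against bone marrow. In lung against culture 3 snoRNP genes fell without lung replicate 3, 2 without bone marrow replicate 1 or 3, and 1 without lung replicate 2 or bone marrow replicate 2. In lung against bone marrow 5 fell without lung replicate 3, 4 without bone marrow replicate 1, where 2 rose, and 1 without lung replicate 1, where 1 rose, lung replicate 2, bone marrow replicate 2 or culture replicate 3. Nhp2, a core H/ACA protein, rose by 1.28 ± 0.09 in bone marrow and by 1.20 ± 0.09 in lung against culture, and Nop10 of the same particle fell by 0.56 in lung against bone marrow. Shq1, an H/ACA assembly factor, fell by 0.51 in bone marrow against culture.

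The factors of nonsense-mediated decay, which degrades spliced host RNAs, gave counts that moved with single libraries. Of 14, 4 rose and 1 fell in bone marrow against culture, 8 rose and 1 fell in lung against culture, and 1 rose and 1 fell in lung against bone marrow (median log2 changes 0.06, 0.31 and 0.21). Rises made up 30.7% of all tested genes in bone marrow against culture, 27.9% in lung against culture and 14.2% in lung against bone marrow. In lung against bone marrow 7 rose without bone marrow replicate 1, 4 without lung replicate 3, and 0 without lung replicate 1, lung replicate 2 or bone marrow replicate 2. In lung against culture 5 rose without lung replicate 2, culture replicate 1 or culture replicate 2. Smg5, an adaptor that recruits decay enzymes, was at 142 CPM in lung, 106 CPM in bone marrow and 58.6 CPM in culture, and rose by 1.28 ± 0.12 in lung against culture and by 0.43 ± 0.12 in lung against bone marrow. Magoh, an exon junction complex protein, rose by 1.02 ± 0.08 in bone marrow against culture and fell by 0.43 in lung against bone marrow. Smg9, a partner of the Smg1 kinase, fell by 0.33 in lung and by 0.48 in bone marrow against culture.

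Protein partners of Neat1 and Malat1 follow, where 30.7% of all tested genes rose and 29.8% fell in bone marrow against culture. In lung against culture 27.9% of all tested genes rose and 27.0% fell. Of 18 paraspeckle protein genes, 0 passed in lung against bone marrow with edgeR (0 to 3 rose and 0 to 2 fell over 19 alternatives, DESeq2 included), 5 rose and 1 fell in bone marrow against culture, and 5 rose and 2 fell in lung against culture. Over the alternatives 3 to 8 rose in bone marrow against culture, with 3 without bone marrow replicate 1 or without any 1 culture library, and 1 to 3 fell, with 3 without bone marrow replicate 1. Over the same alternatives 3 to 6 rose in lung against culture, with 3 without lung replicate 1, culture replicate 2 or culture replicate 3, and 1 to 3 fell, with 1 without lung replicate 2. Hnrnpk, the most abundant of them, was at 1410 CPM in lung and 1520 CPM in bone marrow (edgeR adjusted p = 0.32). Tardbp, an RNA-binding protein of paraspeckles, rose by 0.63 ± 0.09 in lung and by 0.69 ± 0.09 in bone marrow against culture, and Hnrnpul1 fell by 0.99 in lung and by 1.14 in bone marrow. Of 20 nuclear speckle genes, 13 rose and 1 fell in lung against culture, 11 rose and 1 fell in bone marrow against culture, and 2 rose and 2 fell in lung against bone marrow (7 rose without bone marrow replicate 1 and 0 without bone marrow replicate 2, and 0 fell without lung replicate 1, lung replicate 2 or bone marrow replicate 3). The splicing factor Srsf1 rose by 1.12 ± 0.08 in bone marrow against culture. Sf3b1, of the spliceosome, fell by 0.30 in lung and by 0.41 in bone marrow against culture. Clk4, a kinase of SR proteins, rose by 1.37 ± 0.15 in lung against culture and by 0.43 ± 0.14 in lung against bone marrow, where Srsf7 fell by 0.30.

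**Figure D5:**
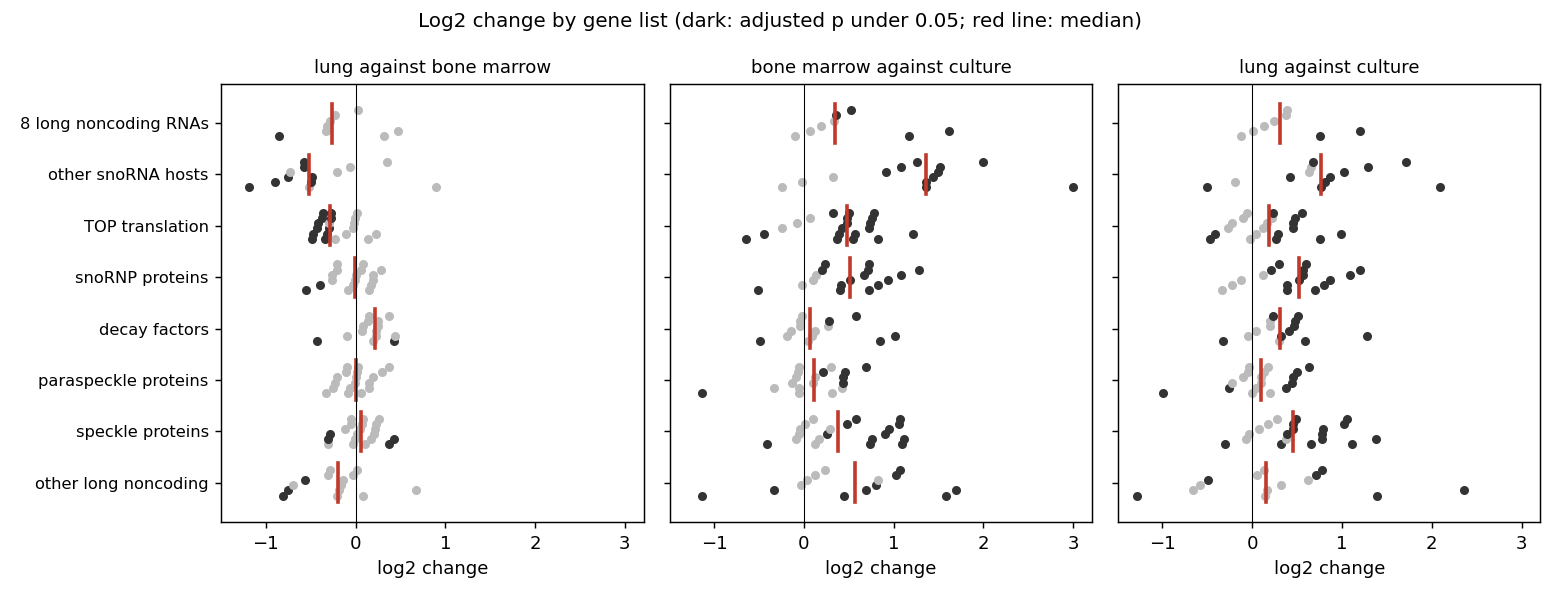
Log2 change of every tested gene (points, dark where the edgeR adjusted p was under 0.05) by gene list (rows) in the 3 comparisons, with the list's median as a red line. The other snoRNA hosts have medians of -0.52 in lung against bone marrow, 1.36 in bone marrow against culture and 0.76 in lung against culture, while paraspeckle proteins have medians of 0.00, 0.11 and 0.10.

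RNA of genes used as markers of other cell types was not equal in the 3 groups. Summed CPM of 10 neutrophil markers was 11.5 to 83.5 in lung, 336 to 2060 in bone marrow and 1.28 to 2.43 in culture, with all 10 detected in each group. Summed CPM of 8 lung epithelium markers was 14.9 to 83.7 in lung, 0.646 to 0.898 in bone marrow and 0.556 to 1.02 in culture, where Sftpd, Epcam and Cdh1 had 0 reads, and Sftpa1 had 0 reads in bone marrow. The 9 macrophage markers summed to 5.84 to 8.96 CPM in lung, 13.2 to 18.3 CPM in bone marrow and 2.95 to 3.26 CPM in culture, with Marco at 0 in bone marrow and C1qa, C1qc and Marco at 0 in culture. The 10 T and NK cell markers summed to 4.11 to 5.63 CPM in lung, 1.61 to 3.85 CPM in bone marrow and 0.223 to 0.355 CPM in culture, with Trbc2 at 0 in bone marrow and Cd3e, Cd2, Ncr1 and Trbc2 at 0 in culture. Endothelium markers summed to 69.8 to 119 CPM in lung, 40.1 to 51.5 CPM in bone marrow and 183 to 220 CPM in culture, led by Calcrl, with Emcn at 0 in culture. Stroma markers, led by Col1a2, with Pdgfra at 0 in bone marrow and culture and Lum at 0 in culture, summed to 182 to 268 CPM in lung, 141 to 212 CPM in bone marrow and 239 to 256 CPM in culture. The endothelium sum was highest in the cultured leukaemia cells, and the stroma sum there overlapped that of lung. Neither sum can be read as an amount of endothelial or stromal cells. The 11 leukaemia and myeloid progenitor genes, led by Kit, summed to 1280 to 1450 CPM in lung, 1120 to 1250 CPM in bone marrow and 2030 to 2140 CPM in culture, where Cebpa was at 0. The 13 mitochondrial transcripts summed to 1620 to 1970 CPM in lung, 1630 to 2140 CPM in bone marrow and 1680 to 1830 CPM in culture. Bone marrow replicate 3 was the library with the most Ptprc and Itgam. Leaving it out gave Snhg8, Snhg12 and Malat1 calls that were absent on all 9 libraries. The part of these groups of genes, and of Ptprc and Itgam, in the levels of the 8 RNAs, which many cell types express, was not tested.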

How the data were processed

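The unit of the deposited tables is the raw read count, 1 table per library, with gene symbols and no normalization. The submitters' processing notes name bcl2fastq, STAR and the mm10 build. Tool versions, counting tool and counting annotation: not given in the sources used here. RNA was extracted with a micro kit and amplified with SMART-seq v4, per the labels' protocols, and the deposited counts are marked unstranded.

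Genes were filtered with filterByExpr (15066 of 55291 kept) and scaled with TMM. All 9 libraries entered 1 robust quasi-likelihood model of edgeR 4.0.16 in R 4.3.3, and each comparison is a contrast of it. Genes with an adjusted p under 0.05 (Benjamini-Hochberg, over all tested genes) passed. SE is that of the log2 change, taken as its absolute value divided by the square root of the F statistic of the edgeR test. The model was tested on simulated data. Coordinates are from GENCODE M21 (GRCm38, the assembly of mm10). Libraries within a group differed beyond sampling noise, and unequally between groups. Chi-square per degree of freedom for pairs of libraries was 3.86 to 7.91 in culture, 14.38 to 26.73 in lung and 27.47 to 39.74 in bone marrow. The 8 genes and the lists were chosen with earlier results of these data known. From each list, the largest passing rise and fall of at least 10 CPM in each comparison is named, or the most abundant gene where none passed, and for each RNA the 2 genes with the most similar profile. Any other gene was chosen after its values were seen. Results of 2 marker lists are not reported here. Alternatives were scaling by RLE, upper quartile or library size, no filter and a stricter one, DESeq2 1.42.0, limma-voom (limma 3.58.1), fits of 6 libraries, the replicate block and leaving out each library.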

Additional observations from a re-analysis of the deposited data

How the results depend on the processing

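Over 19 alternatives, 24 log2 changes of the 8 RNAs gave 456 values, of which 419 kept their direction and their side of the threshold, 12 lost a call, 12 gained a call and 13 changed sign. The changes of Snhg1 against culture and those of Gas5 and Snhg3 in bone marrow against culture kept their calls in all 19. The cause of the moves below was not tested. Snhg1 in lung against bone marrow was -0.02 with upper-quartile scaling and -0.01 with limma-voom. Leaving out 1 library at a time, it ran from -0.06 to 0.07, Snhg12 in lung against culture from -0.10 to 0.11, and in bone marrow against culture Snhg8 from -0.05 to 0.40, Neat1 from -0.20 to 0.25 and Malat1 from -0.34 to 0.10. Members passing as lower in lung against bone marrow numbered 2 with no low-count filter, where Gas5 joined Snhg3, and 0 to 2 with a library left out; 0 to 1 passed as higher. Members higher in lung against culture numbered 1 with limma-voom and 1 to 2 with a library left out. Genes called in lung against bone marrow numbered 3806, against 2381 in a fit of those 6 libraries alone and 2414 (without lung replicate 2) to 4760 with a library left out (2473 without bone marrow replicate 2), and upper-quartile scaling gave 1796 higher and 2088 lower in place of 2138 and 1668. The scalings moved the median of all genes by -0.05 to 0.07.

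Replicate numbers did not pair the libraries by the rule used (residual correlations of lung and bone marrow libraries of the same number of 0.03, 0.27 and 0.09, where each had to exceed 0.1), and lung replicate 1 correlated best with bone marrow replicate 3 (0.14). With the replicate block in the 6 libraries of lung against bone marrow, 2 members passed as higher, Neat1 (0.33, edgeR adjusted p = 0.0086) and Malat1 (0.49, 0.0016), and 2 as lower, Gas5 (-0.29, 0.015) and Snhg3 (-0.85, 0.014). With the block on 9 libraries no member's call changed. Depth limits Snhg3 most, at 19 to 127 reads per library. Intervals come from 1 model of all 9 libraries, 3 a group, with 1 estimate of the spread per gene. Those of a comparison of 2 groups therefore also draw on the third group.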

Other observations

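Among 14 tested genes of a list of other long noncoding RNAs, 7 rose and 2 fell in bone marrow against culture, 4 rose and 2 fell in lung against culture, and 0 rose and 3 fell in lung against bone marrow (1 fell without any 1 lung library). In lung against culture 5 fell without culture replicate 3 and 4 without lung replicate 2, bone marrow replicate 2 or bone marrow replicate 3. Lockd, transcribed beside the cell cycle inhibitor gene Cdkn1b, was at 10.1, 11.9 and 15.5 CPM in lung, at 14.0, 12.8 and 14.5 CPM in bone marrow and at 35.2, 29.3 and 26.5 CPM in culture, a log2 change of -1.28 in lung and -1.14 in bone marrow against culture (edgeR adjusted p = 1.4e-05 and 3e-05). Kcnq1ot1, an imprinted antisense RNA, rose by 0.71 ± 0.22 in lung and by 1.02 ± 0.22 in bone marrow against culture. Dleu2 was at 16.5 CPM in lung and 24.3 CPM in bone marrow (log2 change -0.56, edgeR adjusted p = 0.017). Mir17hg, host of the miR-17 cluster and chosen after its values were seen, was at 5.40, 6.39 and 9.24 CPM in lung, 7.41, 7.96 and 8.58 CPM in bone marrow and 3.23, 2.62 and 2.17 CPM in culture.

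Long noncoding genes as annotated in GENCODE M21 were lower in lung than in bone marrow more often than higher. Of 1307 tested, 31 passed as higher and 267 as lower (median log2 change -0.43), while of 11947 protein coding genes 2059 passed as higher and 1218 as lower (0.04). Culture replicate 3 was the lowest culture library for 51.1% of the long noncoding genes and for 35.0% of the protein coding genes.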
